A study of Mus musculus with 18 samples.

Results

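Esr1, Pgr, Greb1, Cited1, Tnfsf11, Egr3, Prlr and Stat5a are 8 mouse genes of the ovarian hormone response, chosen by symbol as hormone receptors, their partners and known targets. All 8 were found, by symbol, among 56691 features of one experiment and 56893 of the other. RNA with poly(A) tails was sequenced from organoids, small clusters grown in culture from purified mammary epithelial cells of wild-type, nulliparous C57BL/6 mice. The libraries numbered 18, with 3 in each of 6 groups, and the design asked how the organoids respond to an ovarian hormone and to an inhibitor of the growth-controlling kinase mTOR. In the first experiment organoids of mice aged about 24 weeks received 10 nM estradiol, or ethanol as its vehicle, for 11 of 12 days in culture. In the second, organoids of mice aged about 15 weeks, embedded in Matrigel and kept for 18 days, received 100 nM Torin, an mTOR inhibitor named Torin 1 in the series design, or its vehicle DMSO.

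The Torin experiment had arms called D6 and D12, each with its own DMSO group. By the sample titles, D6 organoids were treated for 6 days and D12 organoids for 12, but the design text swaps these lengths, so nothing here rests on which arm had the longer exposure. The arms carry batch tags as well. Batch, exposure time and the day on which exposure began cannot be told apart. All groups shared the genotype and, within an experiment, the culture time. The labels do not say whether replicates came from separate mice or cultures, so p-values measure the spread between these libraries, which may be technical.

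Estradiol acts through estrogen receptor alpha, encoded by Esr1, a ligand-activated transcription factor that binds estrogen response elements in DNA. In the mammary gland it is made by a subset of luminal cells, where estrogen induces the progesterone receptor Pgr. Progesterone in turn induces the secreted signal RANKL, encoded by Tnfsf11, which acts on neighbouring cells. Prolactin acts through its own receptor, Prlr, and the transcription factor STAT5A, which drives alveolar growth and milk protein genes.

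Library totals were 20637473 to 24312079 counts with estradiol or ethanol and 23239364 to 28910688 with Torin or DMSO, and the biological coefficient of variation was 5.27% and 20.2%. The third library of each Torin group stood apart. Its counts differed from those of the other two libraries of its group by a chi-square per degree of freedom of 108 and 132 in D6 and 44.8 and 48.8 in D12, where those other libraries differed from each other by 14.3 and 8.09. Other pairs within a group ranged from 3.55 to 19.1. Levels below are CPM, each gene's share of a library's TMM-scaled counts, and are compared between groups of 1 gene, not between genes, because CPM are not adjusted for length. Changes are log2 fold changes with their standard error (SE) from edgeR, and a gene was called at a Benjamini-Hochberg adjusted p under 0.05 over all genes tested. In bulk RNA, fewer cells of a type and less RNA per cell cannot be told apart.

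Promoter sequences are shown for Pgr, Greb1 and Stat5a, the 3 genes that were called higher in every treatment comparison below. They are the 250 bases before each transcription start in RefSeq, build GRCm38.p6, written 5′ to 3′ on the gene's strand. Capitals mark single arms of the estrogen response element, GGTCA or, on the other strand, TGACC.
Pgr promoter, chr9:8899583-8899832, plus strand: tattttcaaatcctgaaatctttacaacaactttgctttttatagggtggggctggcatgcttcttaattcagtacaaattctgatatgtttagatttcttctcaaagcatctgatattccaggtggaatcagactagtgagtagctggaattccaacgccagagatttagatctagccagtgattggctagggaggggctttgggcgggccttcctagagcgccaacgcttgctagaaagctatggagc
Greb1 promoter at start 1, chr12:16800887-16801136, minus strand: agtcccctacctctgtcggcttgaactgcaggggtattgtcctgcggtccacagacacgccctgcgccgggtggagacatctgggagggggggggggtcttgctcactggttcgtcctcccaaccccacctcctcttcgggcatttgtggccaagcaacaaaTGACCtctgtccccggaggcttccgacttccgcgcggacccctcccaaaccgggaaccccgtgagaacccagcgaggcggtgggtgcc
Greb1 promoter at start 2, chr12:16757240-16757489, minus strand: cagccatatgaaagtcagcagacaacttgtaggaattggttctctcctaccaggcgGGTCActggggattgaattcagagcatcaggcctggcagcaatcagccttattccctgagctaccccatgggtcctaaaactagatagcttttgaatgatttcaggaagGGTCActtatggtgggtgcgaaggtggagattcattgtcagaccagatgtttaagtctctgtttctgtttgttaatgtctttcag
Stat5a promoter at start 1, chr11:100859406-100859655, plus strand: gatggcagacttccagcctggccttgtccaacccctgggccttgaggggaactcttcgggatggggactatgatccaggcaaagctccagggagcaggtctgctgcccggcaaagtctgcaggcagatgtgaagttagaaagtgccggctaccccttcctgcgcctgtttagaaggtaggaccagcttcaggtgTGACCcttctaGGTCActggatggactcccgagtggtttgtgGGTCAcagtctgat
Stat5a promoter at start 2, chr11:100860234-100860483, plus strand: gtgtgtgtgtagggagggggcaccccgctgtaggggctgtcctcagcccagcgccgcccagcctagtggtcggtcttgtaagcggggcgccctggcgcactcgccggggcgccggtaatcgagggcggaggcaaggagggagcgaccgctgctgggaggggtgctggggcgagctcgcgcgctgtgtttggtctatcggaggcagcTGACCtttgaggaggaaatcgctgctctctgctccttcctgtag

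RefSeq entries were matched for 7 of the 8 genes, with 14 transcription starts in all. The full element, GGTCA followed after any 3 bases by TGACC, which reads the same on both strands, was in none of these promoters and in 0.0639% of all 32851 mouse promoters of this length. A single arm was in 6 of the 14 promoters, those of Stat5a, Greb1 and Cited1, and in 35.2% of all promoters. The first Stat5a promoter, the one with the most arms among the 14, held 3, beginning 56, 45 and 14 bases before the start. Of all promoters 8.16% held 2 or more, and the share with 3 or more was not counted. The second Greb1 promoter held 2, beginning 194 and 85 bases before its start. The Pgr promoter held none. TTCNNNGAA, the motif of STAT factors, was found once in a promoter of Esr1 and once in one of Prlr, and in 7.02% of all promoters. A single arm of the progesterone receptor element, AGAACA or TGTTCT, was found in 1 promoter, of Prlr, and in 16.1% of all. These are matches of letters, and no binding was measured.

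Of the 8 genes, 7 passed the filter on low counts in each experiment and Tnfsf11 did not. Greb1 passed through its treated libraries, since its vehicle libraries held 9 counts or fewer. It could hardly have been tested except as higher, so its calls, counted below, add no support. With estradiol 6 of the 7 were called, 4 higher and 2 lower, where 34.0% of all 15358 genes tested were called, 17.4% higher and 16.6% lower. With Torin in D6 6 were called, 3 each way, where 39.1% of 18112 genes were called, 19.8% higher and 19.3% lower. With Torin in D12 all 7 tested were called, 4 higher and 3 lower, where 25.4% of genes were called, 10.8% higher and 14.6% lower. Pgr, Greb1 and Stat5a were called higher and Esr1 and Cited1 lower in all 3 comparisons. Across the 13613 genes tested in both experiments, 4.64% were called higher and 5.41% lower in all 3. The 8 genes were chosen with earlier results of these data known, so their counts beside these shares are no test of the set. The estradiol and Torin comparisons share no control libraries. Treated and vehicle libraries did not overlap for 7 of the 8 genes in each comparison, where 46.4%, 48.5% and 43.7% of all genes tested did not overlap with estradiol, in D6 and in D12. The exceptions were Prlr with estradiol, Egr3 in D6 and Tnfsf11 in D12. Tnfsf11 was not tested, so it counts among the 8 genes but not in these shares. Of the 7 tested genes only Prlr with estradiol and Egr3 in D6 overlapped.

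**Figure D1:**
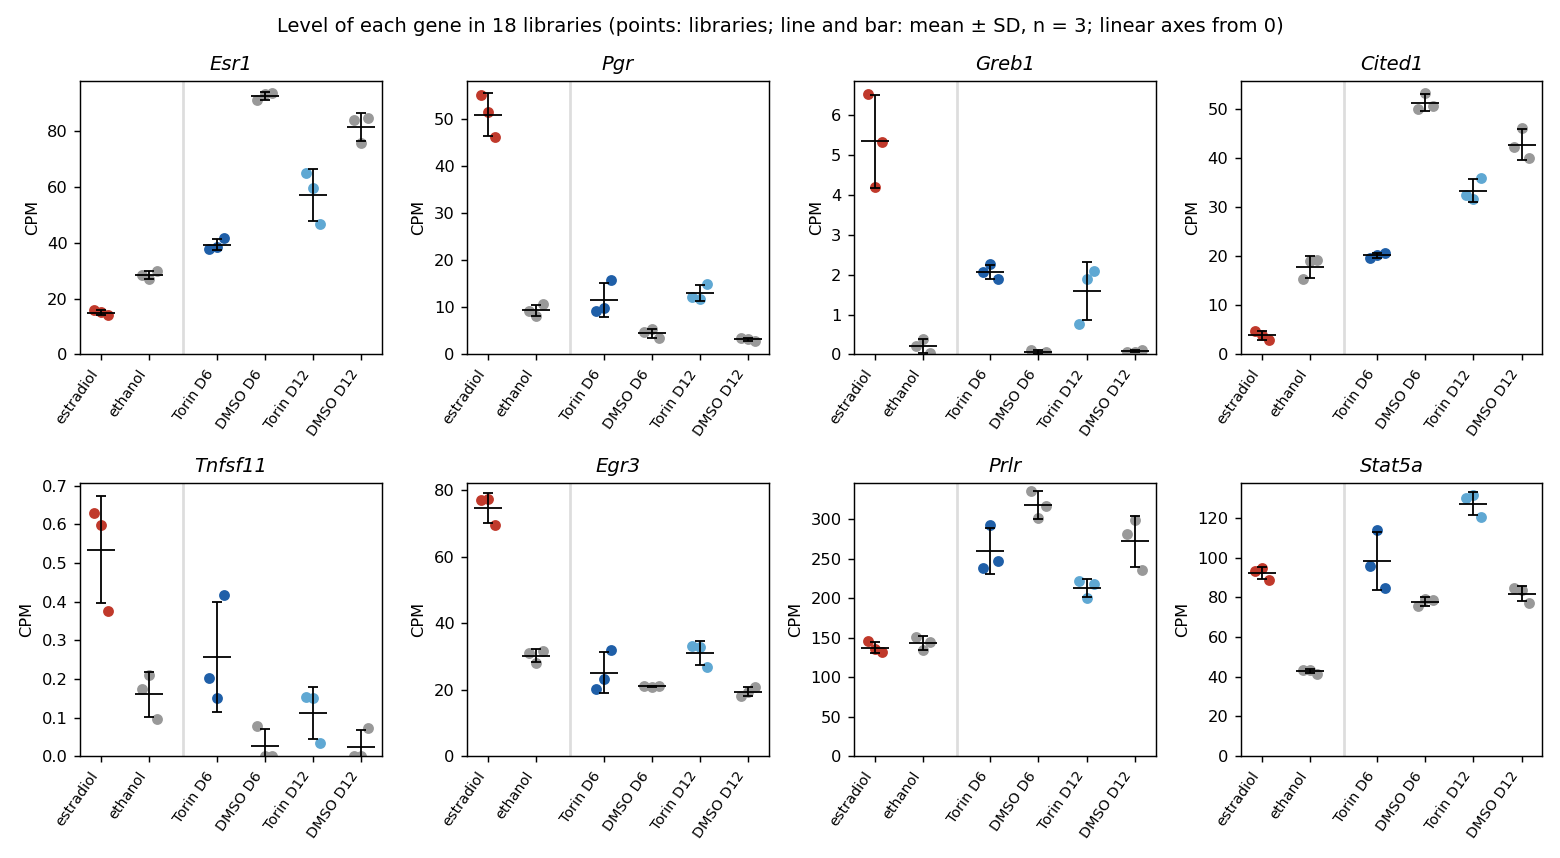
Level of each of the 8 genes in every library, in CPM on linear axes from 0, by group, with the treated group left of its vehicle. Points are libraries, 3 per group, horizontal lines are group means and bars are 1 SD either way. Esr1 and Cited1 are lower in each treated group than in its vehicle group, and Pgr, Greb1 and Stat5a are higher, with no overlap of the libraries.

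Esr1 (ENSMUSG00000019768.17), the gene of estrogen receptor alpha itself, fell in all 3 comparisons. It had 15.8, 15.0 and 14.1 CPM in estradiol libraries, against 28.5, 27.0 and 29.7 CPM in ethanol libraries. Every estradiol library lay below every ethanol library, and the log2 fold change was −0.92 (SE 0.072, edgeR adjusted p = 1.97e-07). In D6 it had 37.8, 38.6 and 41.5 CPM with Torin, against 90.9, 93.1 and 93.4 CPM with DMSO, a log2 fold change of −1.23 (SE 0.11, edgeR adjusted p = 3.79e-06). In D12 it had 64.8, 59.5 and 46.7 CPM with Torin, against 83.9, 75.6 and 84.6 CPM with DMSO, a log2 fold change of −0.51 (SE 0.11, edgeR adjusted p = 0.0039). The groups did not overlap in either arm, and the third Torin library of D12 was the lowest of its group. The Torin effect itself differed between the arms, with a D12 minus D6 difference of 0.72 on the log2 scale (SE 0.15, edgeR adjusted p = 0.00991). From high to low the group means ran DMSO D6, DMSO D12, Torin D12 and Torin D6, and no neighbours in that order overlapped. The step between the DMSO groups was not called.

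Pgr (ENSMUSG00000031870.17), the progesterone receptor, rose in all 3 comparisons. It had 55.1, 51.6 and 46.1 CPM in estradiol libraries, against 9.29, 8.22 and 10.6 CPM in ethanol libraries. That is a 5.45-fold higher level (95% interval 4.77 to 6.23), or 2.45 on the log2 scale (SE 0.090, edgeR adjusted p = 8.45e-11). The lowest estradiol library lay far above the highest ethanol library. Torin libraries of D6 had 9.32, 9.79 and 15.8 CPM, against 4.78, 5.32 and 3.43 CPM with DMSO, a log2 fold change of 1.37 (SE 0.23, edgeR adjusted p = 0.00058). Torin libraries of D12 had 12.3, 11.8 and 15.0 CPM, against 3.49, 3.29 and 2.94 CPM with DMSO, a log2 fold change of 2.00 (SE 0.23, edgeR adjusted p = 9.1e-05). Both arms were free of overlap, and in each the third Torin library was the highest. The difference between the arms, 0.63 on the log2 scale, did not pass the threshold (95% interval −0.069 to 1.33, edgeR adjusted p = 0.256). Without the third Torin library of D6 it was 0.94 and passed (edgeR adjusted p = 0.0271). The 2 Torin groups overlapped each other, as did the 2 DMSO groups.

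Prlr (ENSMUSG00000005268.21), the prolactin receptor, differed least of the tested genes with estradiol. It had 146, 135 and 132 CPM in estradiol libraries, against 151, 135 and 144 CPM in ethanol libraries, and the groups overlapped. The log2 fold change was −0.060 (SE 0.053, edgeR adjusted p = 0.416), with a 95% interval of −0.17 to 0.054. In D6 it had 239, 293 and 247 CPM with Torin, against 336, 301 and 317 CPM with DMSO. In D12 it had 222, 200 and 218 CPM with Torin, against 281, 299 and 236 CPM with DMSO. Every Torin library lay below every DMSO library of its arm, by a small margin. The log2 fold changes were −0.29 in D6 (SE 0.10, edgeR adjusted p = 0.0404) and −0.35 in D12 (SE 0.10, edgeR adjusted p = 0.0262). The D6 call was lost when any library of that arm other than the second Torin library was left out, with adjusted p of 0.0535 to 0.125. The D12 call was lost without the first or second library of either group, with adjusted p of 0.0514 to 0.111. The arms differed by −0.057 on the log2 scale (SE 0.14, edgeR adjusted p = 0.847).

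Greb1 (ENSMUSG00000036523.17), a coactivator of estrogen receptor alpha whose gene is a direct estrogen target, was close to silent in every vehicle group and rose in all 3 comparisons. It had 145, 91 and 113 counts, or 6.51, 4.19 and 5.30 CPM, in estradiol libraries, against 5, 9 and 1 counts, or 0.216, 0.378 and 0.0485 CPM, in ethanol libraries. The fitted log2 fold change was 4.56 (SE 0.36, edgeR adjusted p = 2.16e-07). Torin libraries of D6 held 61, 60 and 50 counts, against 3, 0 and 2 counts with DMSO. Torin libraries of D12 held 20, 50 and 60 counts, against 2, 2 and 3 counts with DMSO. Every treated library was above every vehicle library, and the first Torin library of D12 was the lowest of the treated ones. The summed counts stood at 171 against 5 in D6, a ratio of 31.4 after scaling (95% counting interval 13.2 to 98.0). They stood at 130 against 7 in D12, a ratio of 18.9 (95% counting interval 8.90 to 47.9). These intervals cover counting error only. The fitted log2 fold changes were 4.89 in D6 (SE 0.59, edgeR adjusted p = 4.79e-05) and 4.15 in D12 (SE 0.56, edgeR adjusted p = 0.000257), and they depend on the prior count. The arms differed by −0.74 (SE 0.92, edgeR adjusted p = 0.672).

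The size of the Greb1 change depends on how its length is treated. The factors by which the authors' deposited normalized values differ from the counts, which vary between genes of a library, spread 10.0-fold over the estradiol experiment's libraries for Greb1 and 12.3-fold over those of the Torin experiment. For the other genes they spread up to 1.13-fold and 1.26-fold. With these factors as offsets the log2 fold changes were 4.39 with estradiol, 4.37 with Torin in D6 and 3.17 with Torin in D12, all still called. Greb1 passed the filter through its treated libraries, so these calls, like those of the main fit, add no support. A limma fit of the deposited normalized values gave 3.92 with estradiol (adjusted p = 0.00756), 3.64 in D6 (adjusted p = 0.00897) and 2.31 in D12, which was not called (adjusted p = 0.0952). Leaving out the second ethanol library raised the estradiol value to 5.23, and leaving out the first DMSO library of D6 raised the D6 value to 5.55.

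Egr3 (ENSMUSG00000033730.5), an early growth response transcription factor known as an estrogen target, rose with estradiol and with Torin in D12. It had 77.2, 77.5 and 69.4 CPM in estradiol libraries, against 31.1, 27.9 and 31.6 CPM in ethanol libraries. The groups stood well apart, and the log2 fold change was 1.31 (SE 0.060, edgeR adjusted p = 6.97e-10). In D6 it had 20.2, 23.3 and 32.0 CPM with Torin, against 21.1, 20.8 and 21.2 CPM with DMSO, a log2 fold change of 0.26 (95% interval −0.080 to 0.59, edgeR adjusted p = 0.214). In D12 it had 33.2, 32.8 and 26.8 CPM with Torin, against 18.0, 19.5 and 20.8 CPM with DMSO, a log2 fold change of 0.67 (SE 0.15, edgeR adjusted p = 0.00754). The groups overlapped in D6, where the third Torin library was the highest, and did not overlap in D12. The difference between the arms was 0.41 (SE 0.22, edgeR adjusted p = 0.273). Without the third Torin library of D6 the D6 value was 0.034 and the difference 0.66, which passed (edgeR adjusted p = 0.0141).

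Cited1 (ENSMUSG00000051159.17), a transcriptional coregulator that binds estrogen receptor alpha, fell in all 3 comparisons. It had 4.85, 3.96 and 2.91 CPM in estradiol libraries, against 15.3, 19.1 and 19.3 CPM in ethanol libraries. No library of either group reached the other, and the log2 fold change was −2.19 (SE 0.15, edgeR adjusted p = 4.37e-08). With Torin in D6 there were 19.6, 20.2 and 20.7 CPM, against 50.0, 53.2 and 50.6 CPM with DMSO, a log2 fold change of −1.35 (SE 0.084, edgeR adjusted p = 2.98e-07). With Torin in D12 there were 32.4, 31.7 and 36.0 CPM, against 42.2, 46.2 and 40.0 CPM with DMSO, a log2 fold change of −0.36 (SE 0.082, edgeR adjusted p = 0.00751). The arms were again without overlap, and the 3 Torin libraries of D6 lay close together. The D12 minus D6 difference was 0.99 on the log2 scale (SE 0.12, edgeR adjusted p = 0.000288). Its 4 group means stood in the order seen for Esr1, also without overlap between neighbours. How many of all genes do so was not counted, and the step between the DMSO groups was called for neither gene.

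Tnfsf11 (ENSMUSG00000022015.9), the ligand RANKL, was at the limit of detection. It had 14, 13 and 8 counts in estradiol libraries, against 4, 5 and 2 counts in ethanol libraries, a summed ratio of 3.30 after scaling (95% counting interval 1.64 to 7.19). Counts in D6 were 6, 4 and 11 with Torin, against 2, 0 and 0 counts with DMSO, a ratio of 9.65 (95% counting interval 2.36 to 84.9). Counts in D12 were 4, 4 and 1 with Torin, against 0, 0 and 2 counts with DMSO, a ratio of 4.57 (95% counting interval 0.947 to 43.5). The groups did not overlap with estradiol or in D6, and overlapped in D12. When the filter was dropped, edgeR gave a log2 fold change of 1.71 with estradiol (adjusted p = 0.0411). The edgeR adjusted p of Pgr was 4.14e-230 in that fit and 8.45e-11 in the main fit. The p-values of the estradiol fit without a filter are thus not comparable with the main ones, and 0.0411 is not read as a call. The gene passed the filter when the third estradiol library or any 1 ethanol library was left out. It then passed through its estradiol libraries, the group where it is high, since ethanol libraries held 5 counts or fewer. The edgeR values were 1.46 to 1.93, and it was not called without the third ethanol library (adjusted p = 0.0643). Because of how the gene entered, these fits add no support to a rise. The fit without a filter gave 3.05 in D6 (adjusted p = 0.0956) and 2.01 in D12 (adjusted p = 0.454).

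Stat5a (ENSMUSG00000004043.15), the transcription factor downstream of the prolactin receptor, rose in all 3 comparisons. It had 93.2, 94.7 and 88.8 CPM in estradiol libraries, against 43.5, 43.5 and 41.6 CPM in ethanol libraries. Replicates were tight and the groups far apart, with a log2 fold change of 1.11 (SE 0.045, edgeR adjusted p = 2.38e-10). Levels in D6 were 95.6, 114 and 84.9 CPM with Torin, against 75.4, 79.2 and 78.9 CPM with DMSO, a log2 fold change of 0.33 (SE 0.096, edgeR adjusted p = 0.0162). Levels in D12 were 130, 131 and 120 CPM with Torin, against 84.6, 83.4 and 77.4 CPM with DMSO, a log2 fold change of 0.64 (SE 0.096, edgeR adjusted p = 0.000526). Neither arm overlapped, with the narrower gap in D6. The D6 call was lost without the second Torin library (0.21, edgeR adjusted p = 0.0551) and without the first DMSO library (0.31, edgeR adjusted p = 0.0601), and in a fit of the D6 groups alone (0.32, edgeR adjusted p = 0.0654). The difference between the arms was 0.30 (SE 0.14, edgeR adjusted p = 0.197), and without the second Torin library of D6 it was 0.42 and passed (edgeR adjusted p = 0.0319).

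**Figure D2:**
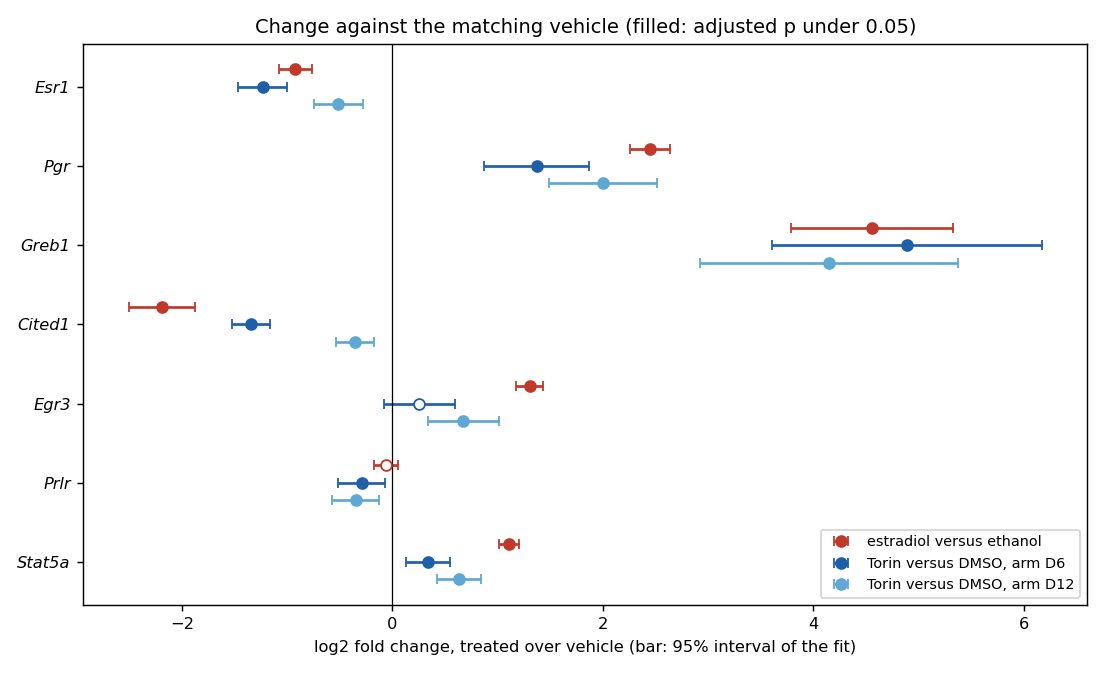
Log2 fold change of each tested gene against its matching vehicle, with 95% confidence intervals from the edgeR fit, for estradiol and for Torin in D6 and D12. Points right of 0 are higher with treatment. Greb1 lies between 4.15 and 4.89, Esr1 and Cited1 lie left of 0 throughout, and the intervals of Prlr with estradiol and of Egr3 in D6 span 0 (open points, not called).

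Between the arms 2 of the 7 tested genes, Esr1 and Cited1, were called for a difference of the Torin effects, where 10.6% of all genes were called, 5.03% with a higher and 5.55% with a lower value in D12. In both genes the fall was smaller in D12. The 2 DMSO groups served as the measure of how the arms differed without the inhibitor. None of the 7 genes was called between DMSO D12 and DMSO D6 (edgeR adjusted p of 1 for each), and 0.00552% of all genes were, which is 1 gene. Unadjusted p were under 0.05 for Cited1 (0.0081, log2 difference −0.26) and Prlr (0.0483, log2 difference −0.23). Libraries of the 2 DMSO groups did not overlap for 4 of the 8 genes, Esr1, Cited1, Egr3 and Prlr, each lower in D12. Over all genes tested, which leave out Tnfsf11, 12.2% did not overlap.

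**Figure D3:**
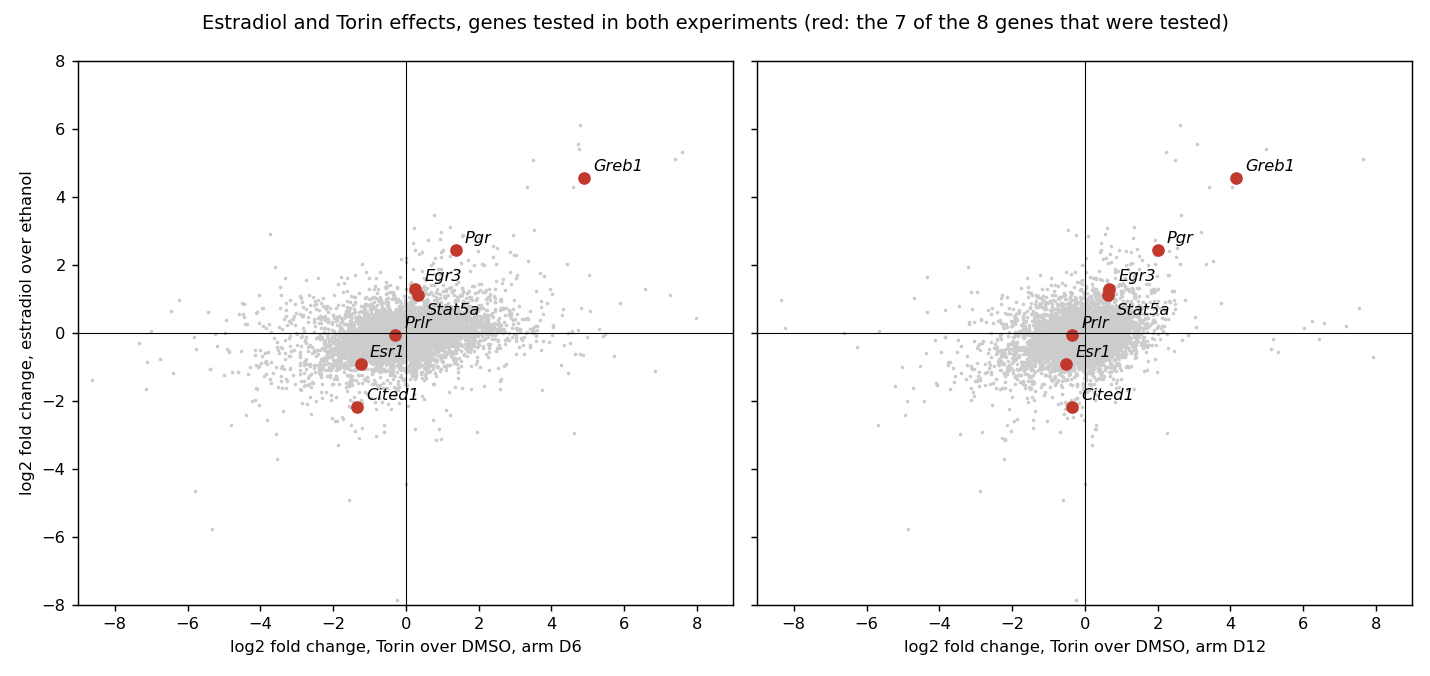
Log2 fold change of estradiol over ethanol on the vertical axes and that of Torin over DMSO on the horizontal axes, with D6 left and D12 right, for genes tested in both experiments. Grey points are all genes and red points the tested receptor and target genes. Pgr, Greb1, Stat5a and Egr3 lie in the upper right of both panels and Esr1, Cited1 and Prlr in the lower left, with Egr3 in D6 and Prlr with estradiol not called.

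Likeness of pattern was measured as the straight-line distance between genes over the 3 log2 fold changes, over 9631 genes that averaged 5 CPM or more in both experiments. The nearest gene to Esr1 was Rsph9, at a distance of 0.10, with −0.92 for estradiol, −1.33 for Torin in D6 and −0.50 for Torin in D12. Hdac11 and Mylk followed at 0.18 and 0.19. The nearest to Pgr was Frem2, at 0.40, with 2.39, 0.97 and 2.03 in the same order, and then Khdrbs3 at 0.73 and Msx2 at 0.93. Stat5a lay nearest to Wnt5a at 0.27, and Prlr to Spsb2 at 0.025. The nearest genes to Prlr lay closer than those to Pgr, whose log2 fold changes were larger. Distances were not scaled to the size of the changes, so they do not compare likeness of pattern between Prlr and Pgr.

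Other genes of the same pathways were taken from 5 lists that leave out the 8 genes. Over all genes tested, 17.4% were called higher and 16.6% lower with estradiol. The shares were 19.8% and 19.3% in D6, and 10.8% and 14.6% in D12. The estrogen receptor partners list holds cofactors, pioneer factors and other receptors. With estradiol 3 of its 19 tested genes were higher and 4 lower, with a median log2 fold change of −0.015, beside −0.0060 over all genes. Cited4, a relative of Cited1, rose by 1.24 (SE 0.048). Cited2 had a log2 fold change of −0.54 (SE 0.042). With Torin in D6 3 of 19 were higher and 2 lower, with a median of 0.11 beside 0.049 over all genes. The 2 lower ones were Tfap2c at −0.89 (SE 0.13) and Gata3 at −0.87 (SE 0.16), both luminal transcription factors. With Torin in D12 2 of 19 were higher and 1 lower, with a median of 0.077 beside 0.012 over all genes. Gper1, a membrane receptor that binds estrogen, was at 0.86 (SE 0.20) in D6 and −1.14 (SE 0.20) in D12. Without the third Torin libraries these counts were 5 higher and 6 lower of 20 in D6, and 10 higher and 4 lower of 20 in D12.

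Other estrogen-induced genes, a list drawn largely from human breast cancer cells, moved in both directions. With estradiol 8 of 18 were higher and 5 lower, with a median log2 fold change of 0.14. The 3 with the lowest p were all lower, Ltf, the iron-binding milk protein lactoferrin, at −1.43 (SE 0.088), Xbp1, a secretory-pathway transcription factor, at −0.78 (SE 0.051), and Car12, a carbonic anhydrase, at −0.56 (SE 0.042). With Torin in D6 12 of 19 were higher and 6 lower, with a median of 0.54. Igf1, the growth factor, had 13.0 ± 0.911 CPM with Torin and 138 ± 12.5 CPM with DMSO in D6 (SD, n = 3 each), a log2 fold change of −3.41 (SE 0.099). Car12 was at −2.91 (SE 0.099) and Xbp1 at −1.47 (SE 0.086). With Torin in D12 5 of 19 were higher and 6 lower, with a median of −0.29. There Igf1 was at −2.45 (SE 0.095), Car12 at −1.07 (SE 0.093), and Cxcl12, a chemokine, at 1.33 (SE 0.087). Without the third Torin libraries 11 were higher and 6 lower in D6, and 5 higher and 8 lower in D12.

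In the progesterone and RANKL list 4 of 10 genes were higher and 3 lower with estradiol, with a median of 0.14. Tnfrsf11b, which encodes osteoprotegerin, the decoy receptor that binds RANKL, rose in all 3 comparisons. It had 24.6 ± 2.41 CPM in estradiol libraries and 7.74 ± 2.56 CPM in ethanol libraries (SD, n = 3 each), a log2 fold change of 1.67 (SE 0.16, edgeR adjusted p = 1.33e-06). Levels in D6 were 387 ± 29.7 CPM with Torin and 27.8 ± 4.84 CPM with DMSO, a log2 fold change of 3.79 (SE 0.16, edgeR adjusted p = 1.74e-08). Levels in D12 were 75.3 ± 7.07 CPM with Torin and 19.0 ± 3.65 CPM with DMSO, a log2 fold change of 1.99 (SE 0.15, edgeR adjusted p = 5.83e-06). The signalling receptor for RANKL, Tnfrsf11a, was at −0.50 with estradiol (SE 0.092, edgeR adjusted p = 0.00071). In D6 4 of 10 were higher and 2 lower, with a median of 0.62, and in D12 1 was higher and none lower, with a median of 0.24. Nfkb2, of the NF-kappaB pathway, was at 0.92 in D6 (SE 0.088). Id4 had 283 ± 396 CPM with Torin and 18.4 ± 3.03 CPM with DMSO in D6, a spread larger than its mean. Without the third Torin libraries 3 were higher and 3 lower in D6, and 4 higher and none lower in D12.

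In the prolactin and STAT5 list 2 of 13 genes were higher and 8 lower with estradiol, with a median of −0.29. Socs3, an inhibitor of cytokine signalling, had 116 ± 1.01 CPM in estradiol libraries and 196 ± 0.344 CPM in ethanol libraries (SD, n = 3 each), a log2 fold change of −0.76 (SE 0.039). Csn1s1, a casein of milk, was at −0.97 (SE 0.076), while Stat5b, the close relative of Stat5a, was at 0.44 (SE 0.048). Reads of the near-identical pair Stat5a and Stat5b may be split by the authors' counting in a way that is not stated. In D6 1 of 12 was higher and 5 lower, with a median of −0.098, and without the third Torin libraries 1 was higher and 7 lower, with a median of −0.56. There Csn3, another casein, was at −1.36 (SE 0.19), Elf5, an alveolar transcription factor, at −0.81 (SE 0.14) and Socs3 at −0.68 (SE 0.068). In D12 2 were higher and 3 lower, with a median of −0.15. Lalba, a milk protein gene, was at 0.87 there (SE 0.20), Ptpn11, a phosphatase of receptor signalling, at 0.28 (SE 0.072) and Elf5 at −0.54 (SE 0.14).

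The early growth response list holds relatives of Egr3 and other immediate early genes. With estradiol none of 12 was higher and 4 were lower, with a median of −0.064. Egr2 was at −0.55 (SE 0.11), where Egr3 was at 1.31. Jun and Nab2 were each at −0.16 (SE 0.047 and 0.050). In D6 2 of 12 were higher and 5 lower, with a median of −0.17, and in D12 1 was higher and 2 lower, with a median of −0.096. Egr2 was at −0.49 in D6 (SE 0.091) and 0.69 in D12 (SE 0.091). Jun, a component of the AP-1 factor, was at −1.10 in D6 (SE 0.12) and −0.83 in D12 (SE 0.12). Nab1, a repressor of EGR proteins, was at 1.22 in D6 (SE 0.28), and Ier3, an immediate early gene, at −0.58 in D12 (SE 0.19). Without the third Torin libraries 1 was higher and 4 lower in D6, and 5 were higher and 4 lower in D12.

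**Figure D4:**
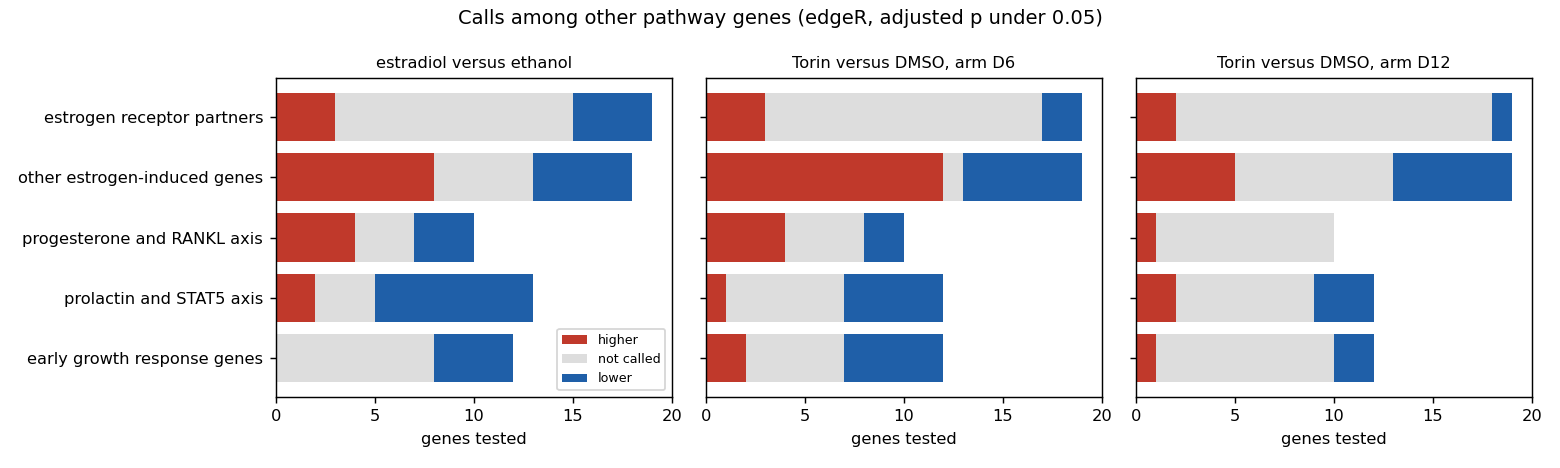
Number of genes called higher, called lower and not called in each of 5 lists of other pathway genes, for estradiol and for Torin in D6 and D12. Bars start at 0 and add up to the genes tested. Of the prolactin and STAT5 genes called with estradiol, 8 of 10 are lower. Of the estrogen-induced genes called with Torin in D6, 12 of 18 are higher. Over all genes tested 17.4% were called higher and 16.6% lower with estradiol, and 19.8% and 19.3% in D6.

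The labels name epithelial cells, and the organoid libraries also held markers of fibroblasts. Markers of hormone-sensing luminal cells other than the 8 genes summed to 840 to 890 CPM with estradiol and 1367 to 1481 CPM with ethanol, with 1 of 7 tested higher and 4 lower. They summed to 1430 to 1723 CPM with Torin and 2726 to 3593 CPM with DMSO in D6, with 1 higher and 3 lower. In D12 they summed to 1252 to 1448 CPM with Torin and 3455 to 3920 CPM with DMSO, with none higher and 3 lower. When the third Torin libraries were left out, 2 were higher and 4 lower in D6, and 2 higher and 3 lower in D12. These sums were lower with each treatment, in which Pgr and Greb1 rose and Esr1 and Cited1 fell. The median log2 fold change of the tested markers was −0.44 with estradiol, 0.21 in D6 and −0.29 in D12. In D6 the median thus went the other way from the sum. Without the third Torin libraries the medians were −0.33 in D6 and −0.30 in D12. Ly6d made up most of each sum, and Calca was at 0 in the estradiol experiment and in D12. Of the 8 markers 5 also stand in the pathway lists, Foxa1 and Tbx3 among estrogen receptor partners, Areg among estrogen-induced genes, and Wnt4 and Calca in the progesterone and RANKL list. The part of hormone-sensing cell number in the changes of Esr1, Pgr, Greb1, Cited1 and Prlr was not tested.

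Luminal progenitor markers, 9 tested, had 2 higher and 6 lower with estradiol, 1 and 6 in D6, and none and 3 in D12. Pan-luminal markers, 6 tested, had 3 higher and 2 lower with estradiol, 3 and 1 in D6, and none and 3 in D12. Basal myoepithelial markers, 9 tested, had 1 higher and 6 lower with estradiol, 3 and 2 in D6, and 2 and 3 in D12. Fibroblast markers summed to 380 to 449 CPM with estradiol and 290 to 315 CPM with ethanol, with 4 of 7 tested higher, 3 of them collagen genes, and Fbln1 lower. Their sums were 267 to 299 CPM with Torin and 868 to 1215 CPM with DMSO in D6, where all 7 were lower, and 685 to 982 CPM with Torin and 874 to 1010 CPM with DMSO in D12, where none was higher and 2 were lower. With the third Torin libraries left out, 5 fibroblast markers were lower in D12, and of the pan-luminal markers 1 was higher and 5 were lower there. Immune markers summed to at most 3.67 CPM in the estradiol experiment and 11.9 CPM in the Torin experiment, endothelial ones to at most 4.99 and 14.1 CPM, and adipocyte markers to at most 1.13 and 1.07 CPM. The immune markers Cd3e and Adgre1 were at 0 in every library of both Torin arms. The part of these cell types in the changes was not tested.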

How the data were processed

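Per the submitters' processing notes, which give no versions or roles, kallisto, DESeq2, Trim Galore with cutadapt, MultiQC and FastQC were used with GRCm39. The deposited estradiol table holds estimated counts, 32.2% of them not whole, which were rounded here. The deposited Torin table holds counts in whole numbers, by symbol. The authors also deposited normalized values for both, a signal used only in alternatives. Symbols came from the file for 39334 estradiol features and from an identifier table for 12739, and 4618 had none.

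Each experiment was fitted with edgeR 4.0.16 in R 4.3.3 (filterByExpr, TMM, quasi-likelihood test on group means, adjusted p under 0.05). The fitting code was tested on simulated data. The 8 genes and all lists were chosen with earlier results of these data known. From each list the text names up to 3 called genes with the lowest p in each comparison, and genes nearest in pattern for Esr1, Pgr, Prlr and Stat5a. A gene that this rule takes is not reported here. Alternatives were DESeq2 1.42.0, RLE size factors, other filters and thresholds, gene length factors as offsets, limma 3.58.1 on the log2 deposited signal (pseudocount 1, minimum mean 10), the replicate block, and leaving out each library. Leaving out the third Torin library of both arms, and Tnfsf11 without a filter, were added after the data were seen. Promoters were RefSeq windows of GRCm38.p6, and no coordinate was carried to GRCm39. Counting intervals are exact at 95%.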

Additional observations from a re-analysis of the deposited data

Results flagged for a closer look

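The fall of Cited1 with Torin differed between the arms by a test of the difference itself, with a D12 minus D6 difference of 0.99 on the log2 scale (SE 0.12, edgeR adjusted p = 0.000288). The fall of Esr1 differed likewise, by 0.72 (SE 0.15, edgeR adjusted p = 0.00991). All 3 Torin libraries of each arm lay below all 3 DMSO libraries of that arm for both genes. Batch, exposure time and the day on which exposure began cannot be told apart in these differences.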

How the results depend on the processing

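Over the log2 fold changes of the 7 tested genes in the 3 treatment comparisons, 343 alternative values were compared with the main ones. Those at a stricter threshold reuse the value of the main fit and could not change sign. Of these 317 kept their direction and their side of the threshold, 26 lost the call or fell short of a stricter threshold, and 0 changed sign. Losses other than at a stricter threshold concerned Prlr, Stat5a and Greb1. They include Prlr in D6 without the third Torin library of both arms (−0.27, edgeR adjusted p = 0.0523).

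At an adjusted p under 0.01, 3397 genes were called with estradiol, 4586 in D6, 2733 in D12 and 842 for the difference between arms, against 5220, 7088, 4592 and 1917. With a change of at least 2-fold, 624, 2891, 1408 and 941 were called, and 2 of the tested genes were called in D12 and 0 for the difference. Without the third Torin library of D6, and without that of both arms, 4 of the tested genes were called for the difference, and without both 3308 genes. Between the DMSO groups 4 genes were called without a filter, 16 in a fit of these groups alone and 14 with DESeq2, against 1.

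With each library left out in turn, 4191 to 4828 genes were called with estradiol, 5595 to 7082 in D6, 3260 to 4634 in D12 and 1219 (without the third DMSO library of D6) to 2307 for the difference. Of the genes tested in each fit, 6 to 7, 4 to 5, 6 to 7 and 2 to 4 were called. The added call with estradiol was Tnfsf11, where it passed the filter. The difference between arms for Prlr, −0.057, ranged from −0.15 to 0.037, above 0 without the second Torin library of D6 or the second DMSO library of D12 (0.017). Greb1 between DMSO groups, 0.35, ranged from −0.14, without the second DMSO library of D6, to 1.02. Replicate numbers did not pair libraries, with correlations of −0.094 to 0.047 between deviations of same-numbered treated and vehicle libraries, and up to 0.093 over all same-numbered pairs. With the replicate block 6, 5 and 7 of the tested genes were called, as Prlr in D6 was lost at −0.30 (edgeR adjusted p = 0.0546). Over all genes tested, 4756 of 15358 were called with estradiol and 6494 of 18112 in D6 with that block. The depth limits Tnfsf11 in all groups and Greb1 in vehicle groups.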
